A study of Arabidopsis thaliana with 27 samples.

Results

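Inflorescences of the rdr6-15 mutant of Arabidopsis thaliana were compared with inflorescences of wild-type Col-0 plants across the transcripts on Affymetrix ATH1 arrays. The comparison used 6 of the 27 arrays of the study, 3 of rdr6-15 and 3 of the Col-0 samples labelled as the control of dcl4-2 and rdr6-15 inflorescences, called set A here. Every probe set except the Affymetrix control transcripts was tested, which gave 22746 of the 22810 on the array. Of these, 13513 carried 1 gene symbol in the platform annotation and 8730 carried none.

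The study measured dcl4-2, rdr6-15 and dcl1-7 mutants against Col-0 in 2 tissues, with 3 arrays in each of 9 groups. Each array was a biological replicate of at least 9 plants, per the design text. Inflorescence samples covered stages 1 to 12, and leaf samples were rosette leaves 5 to 8. The mutant is represented by the single allele rdr6-15, with no second allele or complemented line among these arrays, and the labels do not state its background. A second group of 3 Col-0 inflorescence arrays, labelled as the control of dcl1-7 and called set B here, came from the same genotype and tissue as set A.

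RDR6 is an RNA-dependent RNA polymerase that copies cleaved transcripts into double-stranded RNA, which DCL4 then cuts into small RNAs in phase. The products include the trans-acting siRNAs, which are set off by microRNA-guided cleavage of the TAS transcripts and act on AUXIN RESPONSE FACTOR and pentatricopeptide repeat mRNAs. In Arabidopsis, loss of RDR6 is known for an early change from juvenile to adult leaves and for milder defects of flowers and fertility. Transcripts named RDR6, DCL4 or TAS were not analysed here, so the mutated gene could not serve as a check of the labels.

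The 6 arrays were of similar quality but not identical. The deposited log2 values had array medians of 7.11 to 7.15 in set A and 7.10 to 7.15 in rdr6-15, and arrays of 1 group correlated at 0.996 or above. The difference between 3' and 5' probe sets of the control transcripts, a sign of RNA integrity or labelling, was 0.70 to 0.79 in set A and 0.56 to 0.65 in rdr6-15, with no overlap, and its part in the results below was not tested. The tapetum gene ATA27, a marker of anther tissue, averaged 12.65 in set A, 12.20 in rdr6-15 and 9.87 in set B against 5.38 in Col-0 leaf, in keeping with the labelled tissue. The 2 Col-0 groups differed from each other at 10847 probe sets, 47.7% of all tested, and set B correlated with set A at 0.93. Set B replicate 3 had a 3' minus 5' difference of 2.08, against 0.63 and 0.67 in replicates 1 and 2, and its part was not tested. Whether stage, harvest or processing separates sets A and B is not given in the sources used here, so values against set B stand below beside those results that they change.

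At an adjusted p under 0.05 (limma, Benjamini-Hochberg over all probe sets), 948 probe sets were higher in rdr6-15 than in set A, 4.17% of those tested, and 1021 were lower, 4.49%. Rises and falls differed in size. Only 32 rises reached 2-fold, against 253 falls, and 2 rises reached 4-fold, against 29 falls. The median difference over all probe sets was 0.02 on the log2 scale, with a median standard error (SE) of 0.10. In 1968 of the 1969 called probe sets, all 3 rdr6-15 values lay outside the range of set A, which held for 35.8% of all probe sets. The counts depended on the arrays that set the spread, with 2539 rises and 1937 falls from the 6 arrays alone, and 2640 and 1934 without 3 arrays of other groups with a large 3' minus 5' difference. Leaving out any 1 of the 6 arrays left 435 to 603 rises, and leaving out set A replicate 1 or 3 or rdr6-15 replicate 1 or 2 left 596 to 670 falls. With set B as control, 6306 probe sets, 27.7%, were higher in rdr6-15 and 5588, 24.6%, were lower. Of the calls against set A, 664 rises (70.0%) and 699 falls (68.5%) were called in the same direction against set B, while 147 rises and 113 falls were called in the opposite one.

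**Figure D1:**
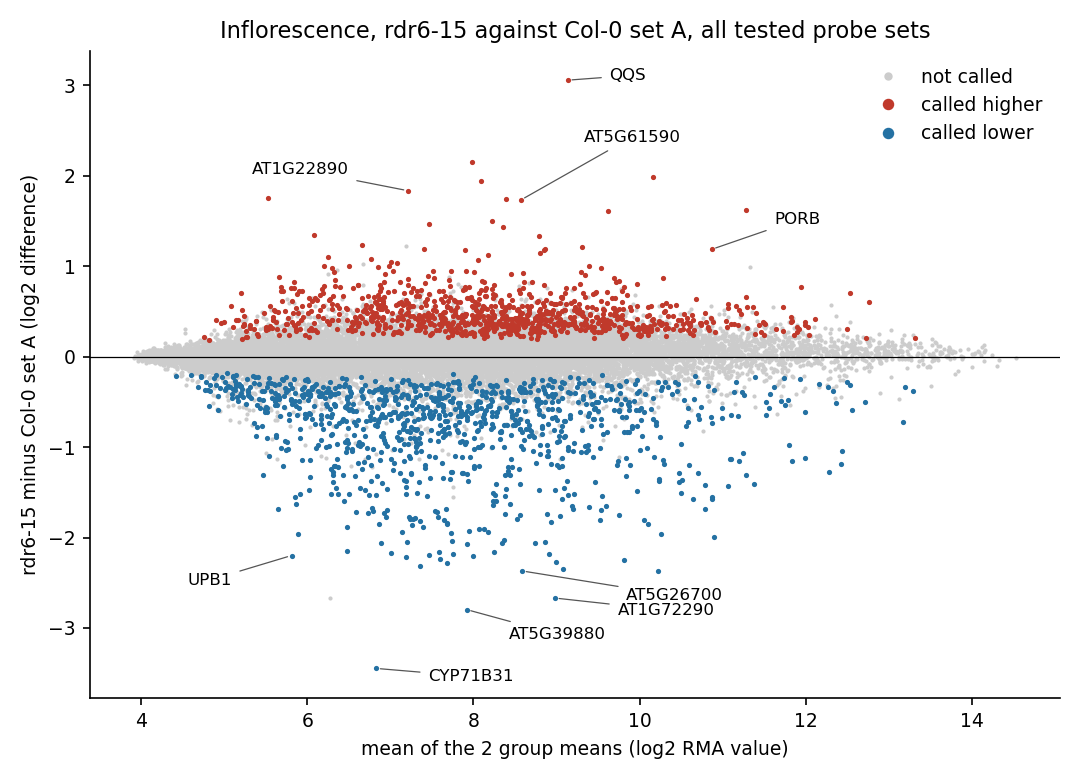
Difference between rdr6-15 and set A (vertical axis, log2) against the mean of both group means (horizontal axis, log2) for each tested probe set, 1 point a probe set, with rises called in red and falls in blue. Falls extend further than rises, and QQS stands alone at 3.06.

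Transcripts known from pollen and the pollen tube were among the strongest falls. RALFL25 and RALFL26 encode small secreted RALF peptides of pollen, AT59 a pectate lyase, APPB1 a pectin methylesterase inhibitor, AT3G05610 a pectin methylesterase and AT5G48140 a polygalacturonase-like protein. PLIM2a, which bundles actin filaments in pollen, and LCR72, a small cysteine-rich protein, fell with them. These 8 genes were 3.7 to 4.9 times lower in rdr6-15, and none of their 3 mutant arrays overlapped set A. Separate arrays were required of those taken from the 14 largest falls. They were found in 1968 of the 1969 called probe sets and in 35.8% of all probe sets.

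RALFL25 read 8.78, 8.76 and 8.92 in the set A arrays and 6.37, 6.33 and 6.91 in the rdr6-15 arrays (log2). It fell by 2.28 (SE 0.30, limma adjusted p = 0.000736). RALFL26, its neighbour on chromosome 3, read 8.20, 8.38 and 8.44 in set A and 6.42, 6.52 and 6.42 in rdr6-15. It fell by 1.89, and in both genes the lowest control array stood more than 1 log2 unit above the highest mutant array. APPB1 read 8.81, 8.75 and 8.98 in set A and 6.48, 6.6 and 6.91 in rdr6-15, a fall of 2.18 (SE 0.18, limma adjusted p = 4.07e-05). AT59 read 8.5, 8.46 and 8.74 in set A and 6.06, 6.21 and 6.84 in rdr6-15. In RALFL25, APPB1 and AT59, replicate 3 was the highest of the mutant arrays and also the highest of the control arrays, and the groups stayed apart.

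AT3G05610 read 8.59, 8.69 and 8.74 in set A and 6.42, 6.53 and 6.58 in rdr6-15, a fall of 2.16 (SE 0.21, limma adjusted p = 0.000113). AT5G48140 read 9.21, 9.29 and 9.49 in set A and 6.90, 7.16 and 7.47 in rdr6-15. Both enzymes act on pectin, as do AT59 and the partner of APPB1. PLIM2a read 8.84, 9.09 and 9.15 in set A and 6.89, 7.01 and 7.44 in rdr6-15, and LCR72 read 8.87, 8.93 and 8.92 in set A and 6.77, 6.89 and 7.30 in rdr6-15. PLIM2a fell by 1.91 and LCR72 by 1.92, with limma adjusted p values of 0.00036 and 0.000923. Against set B, the falls of these genes were of similar size, from -1.78 in LCR72 to -2.59 in RALFL25. That contrast has the same rdr6-15 arrays on which these falls were found, so the sizes are a description.

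**Figure D2:**
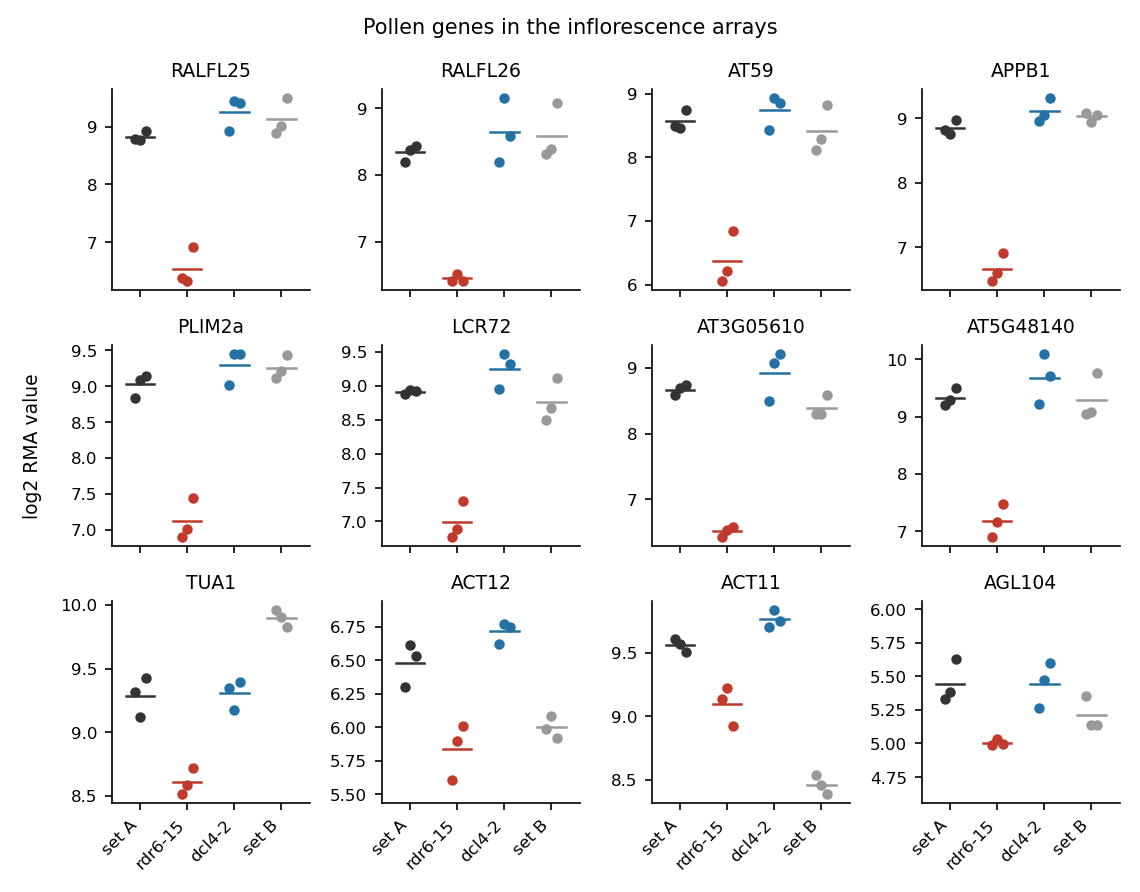
Values of pollen genes (vertical axis, log2) in the 3 arrays each of set A, rdr6-15, dcl4-2 and set B, 1 point an array and a bar for the group mean. The rdr6-15 points lie below all set A points in the genes with a called fall. Means of the wider list, assembled after the values were seen, are 7.06 to 7.25 in dcl4-2 and 6.18 to 6.37 in rdr6-15.

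A list of 10 mature pollen genes (actins, tubulins, MADS factors and receptor kinases) had 6 members called lower and 0 called higher, beside 4.49% and 4.17% of all probe sets, with a median of -0.37 against 0.02. TUA1, a pollen tubulin, read 9.32, 9.12 and 9.43 in set A and 8.52, 8.59 and 8.71 in rdr6-15, and fell by 0.68 (SE 0.09, limma adjusted p = 0.00072). ACT12, an actin of pollen, fell by 0.64, from 6.30, 6.62 and 6.53 to 5.61, 5.90 and 6.01. AGL104, a MADS factor of late pollen, fell by 0.44, and its call was lost without set A replicate 3 (limma adjusted p = 0.0654). ACT11, an actin of reproductive tissue, fell by 0.46 with a limma adjusted p of 0.0326, which rose to between 0.0704 and 0.123 on leaving out any 1 array other than rdr6-15 replicate 2. TUA1 and ACT11 were not particular to pollen in these arrays, since Col-0 leaf averaged 9.00 and 9.06. Leaving out 1 array left 2 to 4 of the 6 falls, with 3 without set A replicate 2, 2 without set A replicate 3 and 3 without rdr6-15 replicate 1. Against set B, 3 members were lower and 2 higher, beside 24.6% and 27.7% of all probe sets. ACT11 was among those higher, at 0.63, and the median was -0.21.

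A wider list of 24 pollen genes was assembled after the values were seen. It had 15 members lower and 0 higher, beside 4.49% and 4.17% of all probe sets, with a median of -0.50. Its mean per array was 6.98 to 7.07 in set A, 6.18 to 6.37 in rdr6-15, 7.06 to 7.25 in dcl4-2 and 6.96 to 7.11 in set B. The rdr6-15 arrays were the lowest of these 4 groups, and the other 3 overlapped. The list holds genes from the largest falls, such as RALFL25, AT59 and APPB1, so its low rdr6-15 mean is a description. Against set B, 14 members were lower and 2 higher, beside 24.6% and 27.7% of all probe sets, with a median of -0.31. Of 5 anther and tapetum genes, 1 fell, beside 4.49% of all probe sets. It was the sugar transporter gene SWEET8, and the median of the 5 was -0.33 with all 5 below 0. None of 5 meiosis genes, 5 ovule genes or 15 floral identity and meristem genes was called in either direction, with medians of 0.01, -0.21 and 0.05. These lists named 28, 25 and 62 genes, so most of their members were not measured under a gene name. In whole inflorescences, fewer cells of a type and less RNA per cell cannot be told apart.

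The calls were also counted among transcripts that are richer in flowers than in leaves. The means of set B and Col-0 leaf, neither of which is a side of the difference between rdr6-15 and set A, were used to find 960 probe sets at least 4-fold higher in inflorescence. Of these, 235 (24.5%) fell in rdr6-15 and 45 (4.69%) rose, beside 4.49% and 4.17% of all probe sets. They made up 235 of the 1021 falls and 138 of the 253 falls of at least 2-fold. Their median difference was -0.13. The set B arrays do share in the estimate of the spread behind the calls. Of the 882 probe sets at least 4-fold higher in leaf than in set B, 48 (5.44%) fell and 78 (8.84%) rose, with a median of 0.04.

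**Figure D3:**
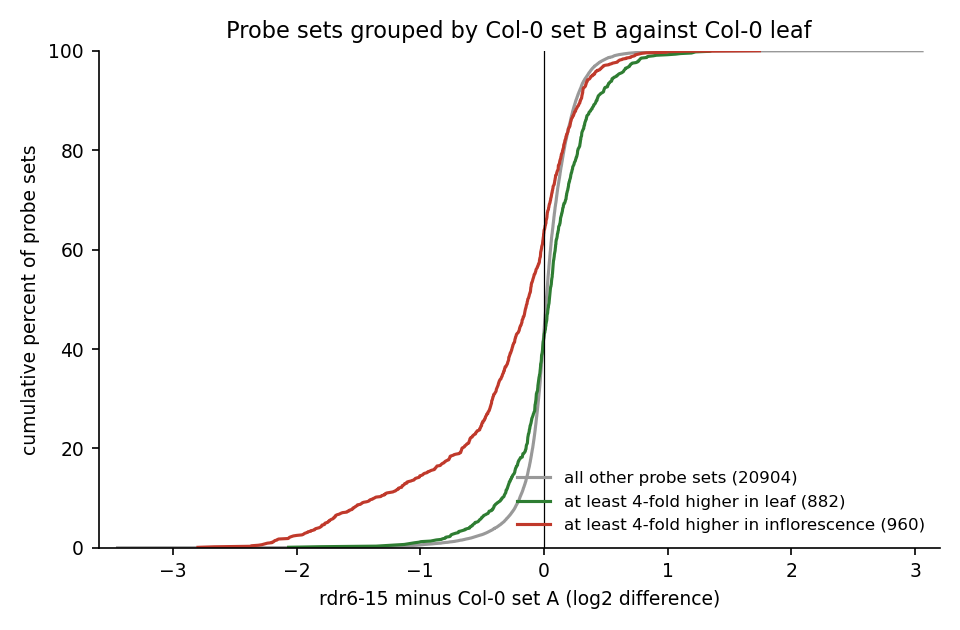
Cumulative percent of probe sets (vertical axis) by their difference between rdr6-15 and set A (horizontal axis, log2), for probe sets at least 4-fold higher in inflorescence (red, 960), at least 4-fold higher in leaf (green, 882) and all others (grey). The red curve leaves the others below 0, where 24.5% of its probe sets were called lower.

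Among the 14 genes with the largest falls, 11 belonged to this inflorescence-rich class, and the falls ran from -3.45 to -2.16. Col-0 leaf averaged 4.52 to 6.64 for them, against 6.91 to 10.32 in set A. AT5G39880, with no role given here, read 9.25, 9.32 and 9.38 in set A and 6.63, 6.42 and 6.51 in rdr6-15, and fell by 2.80 (SE 0.28, limma adjusted p = 0.000153). AT5G26700, a germin-like protein, read 9.73, 9.74 and 9.85 in set A and 7.25, 7.30 and 7.66 in rdr6-15, and fell by 2.37 (SE 0.20). AT3G26110, AT3G26860 (an S1-like protein of the self-incompatibility family) and AT5G54095 had differences of -2.18, -2.24 and -2.18. All 5 were also lower in rdr6-15 than in set B, with differences from -2.66 to -2.04, on the same rdr6-15 arrays.

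Among genes of nectary, petal and scent, CYP71B31 and SWEET9 fell by more than 2 log2 units. CYP71B31, a cytochrome P450 of flowers that acts on linalool, showed the largest fall among called genes with a symbol. It read 8.96, 8.15 and 8.55 in set A and 4.77, 5.48 and 5.07 in rdr6-15, and fell by 3.45 (SE 0.37, limma adjusted p = 0.000243). The rdr6-15 arrays were near the level of Col-0 leaf, 4.82, at the low end of the scale, where a difference can be understated, and set B was as low, at 5.09, 5.14 and 4.84. The difference between rdr6-15 and set B was 0.08 (limma adjusted p = 0.879), within the spread of the arrays. AT1G72290, a Kunitz-type protease inhibitor that binds chlorophyll, showed the same arrangement. It read 10.30, 10.18 and 10.47 in set A and 7.73, 7.86 and 7.36 in rdr6-15, while set B read 7.76, 7.02 and 7.24 and differed from rdr6-15 by 0.31 with a limma adjusted p of 0.239.

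SWEET9, the sugar exporter of the nectary, read 9.32, 8.74 and 9.24 in set A and 6.84, 6.58 and 7.26 in rdr6-15. It fell by 2.21 (SE 0.27, limma adjusted p = 0.000429), and set B lay between, so that the difference from set B was -0.89 (limma adjusted p = 0.0121). JMT, which makes methyl jasmonate, fell by 0.86 and BPEp, which limits petal growth, by 0.80. The JMT call was lost on leaving out any 1 array (limma adjusted p between 0.053 and 0.118), and against set B JMT was higher in rdr6-15, by 0.94. The BPEp call was lost on leaving out any 1 array other than rdr6-15 replicate 3 (limma adjusted p between 0.0843 and 0.133). This list of 9 genes was assembled after the values were seen. Of these, 4 fell and 0 rose, beside 4.49% and 4.17% of all probe sets, with a median of -0.79. Leaving out 1 array left 2 of these falls, or 3 without rdr6-15 replicate 3.

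Of 14 measured genes of the SWEET family of sugar transporters, 6 were lower and 0 higher, beside 4.49% and 4.17% of all probe sets. The median of the family was -0.39. SWEET8, which feeds the developing pollen, read 10.01, 10.23 and 10.26 in set A and 9.35, 9.64 and 9.51 in rdr6-15. It fell by 0.67 (SE 0.13, limma adjusted p = 0.00702). SWEET13, a sucrose transporter of anther and vein, fell by 0.89, from 8.07, 8.06 and 8.10 to 7.09, 7.03 and 7.44. The mutant arrays lay below set A in both genes, and against set B the differences were -1.32 and -1.43. Leaving out any 1 set A array or rdr6-15 replicate 1 left 3 calls in the family. With set B as control, 7 members were lower and 3 higher, beside 24.6% and 27.7% of all probe sets.

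UPB1, a bHLH factor known from its control of reactive oxygen in the root, was among the 14 largest falls although it is not a pollen gene. It read 7.05, 6.54 and 7.13 in set A and 4.75, 4.78 and 4.60 in rdr6-15, a fall of 2.2 (SE 0.33, limma adjusted p = 0.00152). Set B averaged 9.33, above both. The 2 Col-0 groups thus differed from each other by about as much as the mutant differed from set A.

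The rises were led by QQS, an orphan gene of Arabidopsis known to affect starch. QQS read 7.75, 7.41 and 7.67 in set A and 10.71, 10.73 and 10.56 in rdr6-15. It rose by 3.06 (SE 0.17, limma adjusted p = 6.09e-06), or 8.32-fold, and by 2.98 against set B. All 3 mutant arrays stood far above the 6 Col-0 inflorescence arrays. QQS was also higher in rdr6-15 leaf, at 10.11, 10.25 and 10.23 against 7.77, 8.09 and 8.24 in Col-0 leaf, a rise of 2.16 (limma adjusted p = 0.00115). In dcl4-2 inflorescence it read 9.02, 9.31 and 8.80, between set A and rdr6-15. The direct difference between rdr6-15 and dcl4-2 was 1.62 (limma adjusted p = 9.73e-05).

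**Figure D4:**
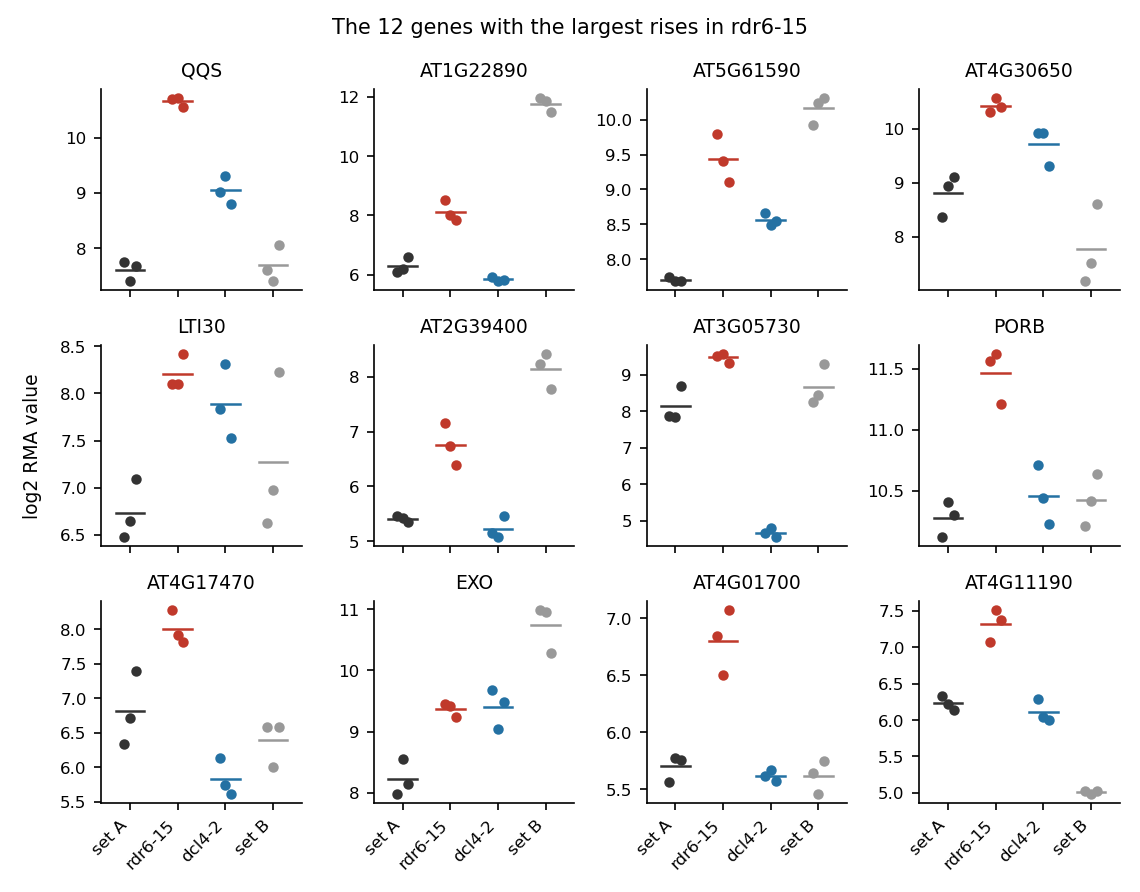
Values (vertical axes, log2) of the 12 genes with the largest rises, 1 point an array and a bar for the group mean, in set A, rdr6-15, dcl4-2 and set B. The rdr6-15 points lie above set A in each panel, while set B lies above rdr6-15 in AT1G22890, AT5G61590, AT2G39400 and EXO.

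Of the next largest rises, 4 reversed with set B as control. AT1G22890 read 6.09, 6.20 and 6.58 in set A and 8.52, 8.01 and 7.86 in rdr6-15, a rise of 1.84 (SE 0.18, limma adjusted p = 0.000134), but set B averaged 11.77. AT5G61590, an ethylene response factor named DEWAX that represses wax genes, read 7.74, 7.69 and 7.69 in set A and 9.80, 9.41 and 9.11 in rdr6-15. It rose by 1.73 against set A, while its difference from set B was -0.73. AT2G39400, an alpha/beta-hydrolase gene, and EXO, a brassinosteroid-induced growth gene, rose by 1.35 and 1.14 against set A, while their differences from set B were -1.38 and -1.37. Of the 14 largest rises, 9 were called in the same direction against set B, 4 in the opposite one and 1 in neither. Of the 14 largest falls, 12 were called lower against set B, 0 higher and 2 neither. Over all probe sets, 27.7% were higher and 24.6% lower against set B. Both sets of 14 genes were chosen on the same rdr6-15 arrays, so these counts are a description. The EXO call was lost without set A replicate 1 or 3 or rdr6-15 replicate 1 or 2 (limma adjusted p between 0.0518 and 0.0658).

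Other rises were shared with set B as control. PORB, an enzyme of chlorophyll synthesis, read 10.12, 10.41 and 10.30 in set A and 11.56, 11.62 and 11.21 in rdr6-15. It rose by 1.19 (SE 0.17, limma adjusted p = 0.00101), and by 1.04 against set B. CHLI2 and CHLM of the same pathway rose by 0.58 and 0.24, but CHLM was lower than set B, by -0.17, and its call was lost without any 1 set A array or rdr6-15 replicate 1 (limma adjusted p between 0.0506 and 0.0763). These 3 were the only called members among 19 nuclear photosynthesis and chlorophyll genes, beside 4.17% of all probe sets called higher. The median of this list was 0.15, and leaving out any 1 set A array or rdr6-15 replicate 1 left 2 calls. None of 69 plastid-encoded transcripts was called in either direction, with a median of 0.06. BCAT4, of methionine chain elongation for glucosinolates, rose by 1.06, and GSTU20, a glutathione transferase linked to the same products, by 0.77. Of 6 glucosinolate genes, a list assembled after the values were seen, these 2 were called, beside 4.17% of all probe sets called higher.

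Single genes of stress and defence were among the larger rises. Of 4 pathogen defence genes, however, 0 rose and 1 fell, beside 4.17% and 4.49% of all probe sets. Of 9 jasmonate and wounding genes, 0 rose and 2 fell, JMT among them. AT4G30650, a small hydrophobic protein of low temperature and salt response, read 8.38, 8.94 and 9.11 in set A and 10.30, 10.57 and 10.39 in rdr6-15, a rise of 1.61 (SE 0.32, limma adjusted p = 0.00838). LTI30, a dehydrin, rose by 1.47 and COR15B, a cold-regulated plastid protein, by 0.87. They were the called members among 6 cold and drought genes, beside 4.17% of all probe sets called higher. The median of this list was -0.02, with 3 members below 0. The LTI30 call was lost without set A replicate 1 or 2 or rdr6-15 replicate 2 or 3 (limma adjusted p between 0.0504 and 0.0726), and that of COR15B without set A replicate 1 (0.0509). AT4G01700, a chitinase-like gene, rose by 1.1, from 5.57, 5.77 and 5.76 to 6.84, 6.50 and 7.07, with no overlap. AT4G11190, a dirigent-like gene, and AT5G45700 rose by 1.08 and 1.05. AT4G17470, another alpha/beta-hydrolase gene, rose by 1.19, and its call was lost without set A replicate 1 (limma adjusted p = 0.0572) or rdr6-15 replicate 1 (0.0554).

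The pentatricopeptide repeat genes of the RFL group, several of which are targets of trans-acting siRNAs and of siRNAs made from their own transcripts, had 1 of 15 measured members higher and 0 lower, beside 4.17% and 4.49% of all probe sets. The median was 0.14, beside 0.02 over all probe sets, and 13 members lay above 0, beside 55.9% of all probe sets. AT1G63150 read 5.30, 5.31 and 5.28 in set A and 6.01, 6.06 and 6.13 in rdr6-15, and rose by 0.77 (SE 0.08, limma adjusted p = 0.000189). AT1G12775 read 5.38, 4.98 and 5.26 in set A and 5.67, 5.73 and 5.70 in rdr6-15, with a difference of 0.49 that did not pass (limma adjusted p = 0.0527). AT1G63080 and AT1G12620 differed by 0.30 and 0.39, with limma adjusted p values of 0.0575 and 0.128. In these 4 genes all mutant arrays lay above set A, while 35.8% of all probe sets lay outside it in either direction. The 4 were picked as the members with the smallest p, which favours separate arrays, so this is a description. Their values were near the low end of the scale. With set B as control, 9 of the 15 were higher, beside 27.7% of all probe sets, and without weakly expressed probe sets none was. Members of the family are similar in sequence, and how well the probe sets tell them apart was not analysed here.

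Among 8 microRNA target genes, 0 rose and 2 fell, beside the same 4.17% and 4.49%. APS4, which encodes ATP sulfurylase and is a miR395 target, read 7.91, 8.00 and 8.19 in set A and 7.11, 7.07 and 7.12 in rdr6-15, a fall of 0.93 (SE 0.17, limma adjusted p = 0.00429). ARPN, or plantacyanin, a target of miR408, fell by 0.68, from 11.39, 11.24 and 11.36 to 10.70, 10.62 and 10.62. Both had mutant arrays below set A, but against set B ARPN was higher in rdr6-15, by 0.28. None of 5 genes of the small RNA machinery was called, with a median of 0.16. AUXIN RESPONSE FACTOR genes were not analysed here.

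**Figure D5:**
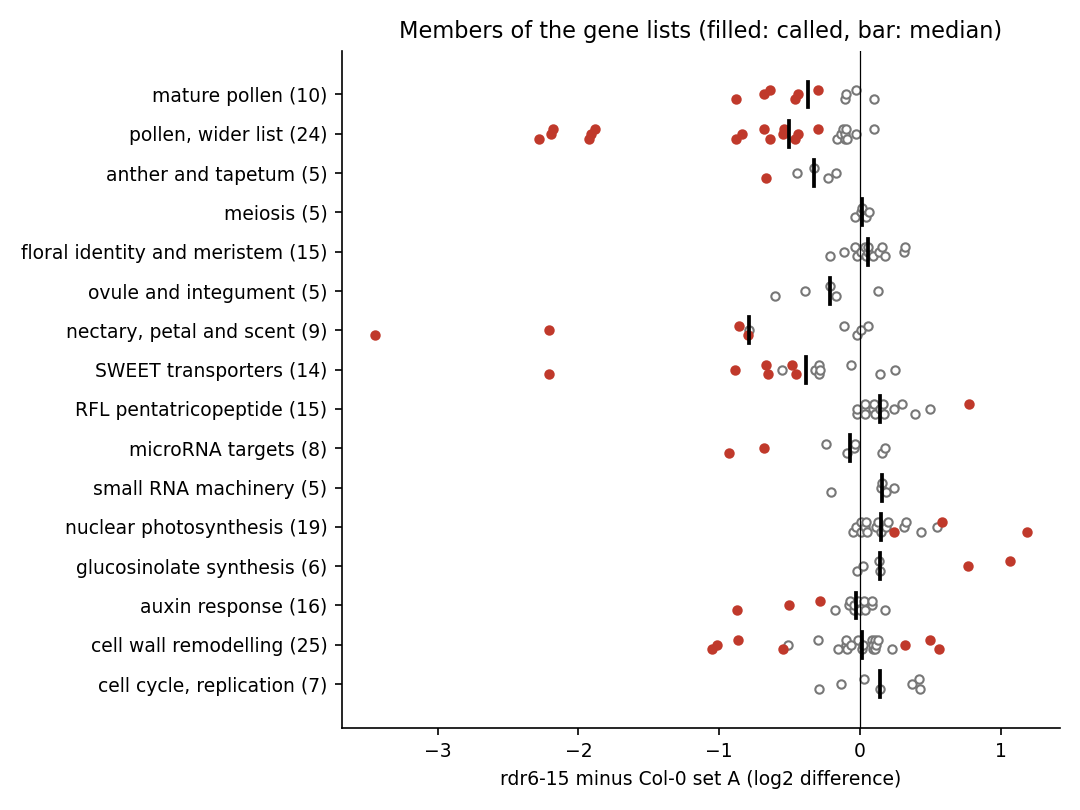
Differences between rdr6-15 and set A (horizontal axis, log2) for the members of each gene list, 1 point a gene (filled where called), with a bar for the median and the number of members in brackets. The medians of the mature pollen, SWEET and nectary lists lie below 0, at -0.37, -0.39 and -0.79.

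Most of the remaining lists held calls in both directions or few calls. Of 16 auxin response genes, 0 rose and 3 fell, beside 4.17% and 4.49% of all probe sets, with a median of -0.03. Of 25 cell wall loosening genes, 3 rose and 4 fell, beside the same 4.17% and 4.49%, with a median of 0.01. Among the falls, EXPA8, an expansin, fell by 1.05 and EXPB5, a beta-expansin, by 0.54. Neither passed against set B, where their differences were -0.27 and -0.11, and leaving out 1 array left 1 to 3 rises and 2 to 3 falls of the list. Of 5 trichome markers, 1 rose and 1 fell, beside the same 4.17% and 4.49%, with a median of 0.04. The fall was that of TRY, an inhibitor of trichome formation, by 0.60, from 8.17, 8.20 and 8.07 to 7.52, 7.41 and 7.70. SPCH, which starts the stomatal lineage, rose by 0.48, and its call was lost without set A replicate 1 (limma adjusted p = 0.0509). It was the only call among 4 stomata markers, beside the same 4.17% and 4.49%. All 4 lay above 0, beside 55.9% of all probe sets, with a median of 0.30. No call was made in lists of 5 root markers, 8 late seed genes, 7 cell cycle genes, 10 autophagy genes or 16 mitochondrial transcripts. Against set B all 10 autophagy genes were lower, while 24.6% of all probe sets were called lower. The median of this list was 1.47 for set B minus set A, and -0.15 for rdr6-15 minus set A.

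The direct contrast between rdr6-15 and dcl4-2 inflorescences called 1688 probe sets higher in rdr6-15, 7.42%, and 1825 lower, 8.02%. Its differences use none of the set A arrays, which do share in the estimate of the spread behind the calls. In dcl4-2 replicate 2 the 3' minus 5' difference was 1.78, against 0.71 and 0.64 in replicates 1 and 3 and 0.56 to 0.65 in rdr6-15. Its part in this contrast was not tested. The rdr6-15 arrays are the same, and the largest rises and falls were chosen on their values. Calls of those genes here are therefore a description. All 14 of the largest falls and 10 of the 14 largest rises were called in the same direction. CYP71B31 was lower in rdr6-15 by -4.66, AT5G39880 by -3.05, RALFL25 by -2.72 and AT3G26860 by -2.59, which were the largest falls among named genes. AT3G05730, a defensin-like gene, was higher by 4.79 (limma adjusted p = 2.27e-05), from values of 4.68, 4.81 and 4.55 in dcl4-2 to 9.52, 9.56 and 9.32 in rdr6-15. In set A it read 7.86, 7.83 and 8.70, so rdr6-15 stood above and dcl4-2 below the control arrays. Its rise of 1.34 against set A was lost on leaving out any 1 array other than set A replicate 3 (limma adjusted p between 0.0611 and 0.111).

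AT1G66100, a thionin, and AT4G17470 were higher in rdr6-15 than in dcl4-2 by 2.57 and 2.17. AT1G66100 differed from set A by 1.23 with a limma adjusted p of 0.0658, which fell to 0.0465 without set A replicate 3. Both mutants were set against the same set A arrays, and dcl4-2 had 252 probe sets higher, 1.11%, and 221 lower, 0.972%, in that fit. In dcl4-2 the differences of the 14 genes with the largest falls in rdr6-15 ran from -0.31 to 1.21, and the medians of the mature pollen, wider pollen and SWEET lists were 0.16, 0.15 and 0.14. The differences of the genes with the largest rises ran from -3.45 in AT3G05730 to 1.44 in QQS, and EXO, LTI30 and COR15B differed by 1.18, 1.15 and 0.95.

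In rosette leaves, rdr6-15 differed from Col-0 at 3 probe sets higher, 0.0132%, and 1 lower, 0.0044%, and 773 had an unadjusted p under 0.05. QQS was among the 3. The 3' minus 5' difference was larger in leaf arrays, 2.17 to 2.83 in Col-0 and 1.96 to 2.415 in rdr6-15. Arrays of a group correlated at 0.984 to 0.992 in Col-0 leaf and 0.987 to 0.989 in rdr6-15 leaf. The part of RNA quality in the leaf counts and in the tissue difference was not tested. The difference of the rdr6-15 effect between inflorescence and leaf was tested as an interaction over all 27 arrays. It was called higher in inflorescence at 205 probe sets, 0.901%, and lower at 353, 1.55%. The 14 largest inflorescence falls were chosen on a difference that enters this contrast, so their calls here, 14 of 14, are a description. Their Col-0 leaf means were low, from 4.52 to 6.64, and their leaf differences ran from -0.21 to 1.27. UPB1 had the leaf difference at the upper end, at 5.19, 5.49 and 5.21 in Col-0 leaf and 6.56, 6.67 and 6.48 in rdr6-15 leaf, with no overlap, but its leaf difference was not called (limma adjusted p = 0.969). Of the 14 largest rises, 7 had a called tissue difference. That of QQS, 0.89, was not called (limma adjusted p = 0.071), which does not show an equal rise in both tissues.

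In the RefSeq gene order, 15 runs had at least 3 called genes among 5 neighbours, and the number that calls scattered at random would give was not computed. Of these runs, 8 held both directions, 5 rises alone and 2 falls alone. Both runs of falls were on chromosome 3, and one held AT3G28750, AT3G28770, AT3G28780 and AT3G28790, with differences of -1.68, -0.38, -1.11 and -1.13. AT3G28750 read 11.56, 11.62 and 11.69 in set A and 9.87, 9.87 and 10.09 in rdr6-15, against 5.28 in Col-0 leaf. AT3G28770 was called with a limma adjusted p of 0.027 and lost its call on leaving out any 1 array other than set A replicate 3 (between 0.0616 and 0.116). The other held AT3G01240, AT3G01250 and the pectate lyase gene AT3G01270, with differences of -1.85, -1.39 and -1.43.

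Some of the strongest changes had no gene name in the tables used. The probe sets 248197_at and 248337_at rose by 2.15 and 1.98. The former read 6.71, 7.00 and 7.01 in set A and 9.24, 9.26 and 8.68 in rdr6-15, above all other inflorescence groups. The probe sets 253666_at and 265984_at fell by 2.36 and 2.34, and set B averaged 13.04 and 7.49 for them, above and below the rdr6-15 means of 9.04 and 7.90. For 265984_at the rdr6-15 arrays therefore stood nearer to set B than to set A, which averaged 10.25.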

How the data were processed

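Labelled total RNA was hybridised to 1-colour ATH1 arrays. The deposited values are log2 expression values made by the authors with RMA, per the submitters' processing notes. For the RMA version and for the set of arrays normalized in 1 run, no statement was found in the labels. Groups came from the sample descriptions, and arrays of a group are biological replicates per the design text. The number of arrays limits the precision.

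From these values limma 3.58.1 in R 4.3.3 (lmFit, eBayes) fitted 5 groups over the 15 inflorescence arrays. No further normalization or low-value filter was applied. Contrasts were rdr6-15 minus set A and rdr6-15 minus dcl4-2, and the tissue interaction used all 27 arrays. Benjamini-Hochberg adjustment ran over 22746 probe sets, called at 0.05. The fit was checked on simulated data. Symbols came from the platform annotation, updated through the RefSeq table of TAIR10.1, which matched 13459 probe sets. Where a gene had several probe sets (147 genes), lists used the one of highest mean. Lists were described by counts and medians, with no set test. Only listed genes matched to a named probe set were counted, such as 10 of 50 mature pollen genes and 8 of 66 microRNA targets.

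Named genes were the 14 largest called rises and falls with non-overlapping arrays, up to 4 members a list with the smallest p, 4 each way in the contrast with dcl4-2 and in the tissue difference, QQS and AT3G05730, runs of called neighbours, and at most 2 unnamed probe sets each way. The genes and lists were chosen with earlier results of these data known. Alternatives were other sample sets, controls, normalizations, filters, variance models and leaving out each array.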

Additional observations from a re-analysis of the deposited data

Results flagged for a closer look

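These genes had an rdr6-15 effect that differed between inflorescence and leaf by a test of the difference itself (limma interaction over 27 arrays, adjusted p under 0.05), and most were chosen on their inflorescence difference, which enters this test, so the values describe them. They are given as the inflorescence effect minus the leaf effect on the log2 scale. Among pollen genes and other inflorescence-rich genes, the difference was -2.76 for AT5G39880, -2.49 for AT5G26700, -2.39 for RALFL25, -2.22 for AT59, -2.16 for APPB1, -2.15 for AT3G26860, -2.13 for AT3G05610, -2.07 for AT5G48140, -2.04 for AT3G26110 and -2.01 for AT5G54095. Their Col-0 leaf means ran from 4.52 to 6.64. The difference was -3.24 for CYP71B31, -2.79 for AT1G72290 and -2.10 for SWEET9. UPB1 differed by -3.47, with a leaf difference of 1.27.

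Positive differences were found for AT2G39400 (1.65), AT4G17470 (1.64), AT4G26370 (1.26), AT5G45700 (1.21), PORB (1.16), AT4G11190 (1.15), AT4G01700 (1.02) and BCAT4 (1.00). AT4G26370 read 8.71, 8.88 and 8.90 in set A and 9.74, 9.68 and 9.88 in rdr6-15. Its leaf difference was -0.32.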

How the results depend on the processing

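No paired analysis was possible because the array numbers in the labels run on across groups and no replicate number is shared. The counts of rises and falls moved by over 1.5 times in several fits. They were 2539 and 1937 with the 6 arrays alone, 2954 and 2300 with array weights, 12 and 128 against a minimum difference of 0.5, 6306 and 5588 with set B as control, and 5113 and 4235 with the mean of sets A and B. Rises numbered 505 with all 27 arrays. Replicate 2 of dcl4-2 and replicate 3 of set B and of dcl1-7 had the largest 3' minus 5' differences among inflorescence arrays (1.78 to 2.08). Without these 3 arrays, an alternative added after seeing the data, rises and falls numbered 2640 and 1934. Leaving out 1 array gave 435 to 603 rises and 596 to 808 falls. The tissue difference gave 379 and 572 with its 12 arrays alone. RFL genes called higher were 4 with 6 arrays and without those 3 arrays, 3 after centring, 0 without weak probe sets, and 9 with set B or the mean of both sets, with a median of 0.22 against set B. SWEET genes called higher were 3 with set B and 2 with the mean, and those called lower 3 to 5 leaving out 1 array. Mature pollen genes called lower were 3 with set B, 3 without weak probe sets and 2 to 4 leaving out 1 array. Those called higher were 2 with set B and 1 with the mean, and the median against set B was -0.21. The wider pollen list had 2 members higher with set B and 1 with the mean, and medians of -0.31, -0.33 and, without weak probe sets, -0.68. With set B as control the difference changed sign in AT1G22890 (-3.64), AT5G61590 (-0.73), AT2G39400 (-1.38), EXO (-1.37), CYP71B31 (0.083), AT1G72290 (0.31), JMT (0.94), ACT11 (0.63), ARPN (0.28), CHLM (-0.17) and ATA27 (2.33), and with the mean in AT1G22890 (-0.90), AT2G39400 (-0.0163), EXO (-0.11), JMT (0.04), ATA27 (0.94) and ACT11 (0.0847). The cause was not tested. Of 58 called genes in the text, 58 stayed called after centring, quantile normalization, trend with robust fitting, array weights, and in the fits with 6 arrays and without the 3 arrays. The number was 55 with 27 arrays, 54 without weak probe sets, 51 with the mean, 40 with set B, 25 against the minimum difference, and 47 to 53 leaving out 1 array. Signal over background, not analysed here, limits weak probe sets.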
